A study of Homo sapiens with 18 samples.

Results

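The genes described here are the 38 zinc finger genes of the 19q13.41 to 19q13.42 bands of human chromosome 19 that lie around ZNF320, taken by their symbols from the 26475 genes of an RNA-seq count table. RNA-seq was performed in the uveal melanoma (UM) cell lines Mel92.1 and MP41, both established lines of an eye cancer that arises from melanocytes. Each line was treated for 48 h with 1 µM UNC0642 or 1 µM A366, a pair of small molecules that inhibit the histone methyltransferases EHMT2 (G9a) and EHMT1, or with DMSO as the vehicle control. There were 3 biological replicates in each of the 6 groups, which gave 18 libraries, and no group carried a genetic change made for the experiment. The question behind the design was which genes respond to EHMT2 inhibition.

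KRAB zinc finger proteins are DNA-binding repressors. Their tandem C2H2 fingers read the DNA sequence, often in transposable elements, and the KRAB domain recruits TRIM28, which brings in the histone methyltransferase SETDB1, HP1 proteins and the HUSH complex to build H3K9-methylated heterochromatin. The human genes lie mostly in clusters on chromosome 19 that grew by tandem duplication, and members of a cluster therefore resemble each other. EHMT2 and EHMT1 form a complex that methylates the same H3K9 residue, with WIZ and ZNF644 as zinc finger partners. In UM cells, however, the study reports no direct interaction between EHMT1 and EHMT2.

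The A366 libraries 2 and 3 of both lines went against their labels. The 2 libraries labelled MP41 A366 held 95.2% and 110% of the mean summed level that 20 genes of Mel92.1 reach in its DMSO libraries, and 0.0177% and 0.0285% for 21 genes of MP41, and the 2 labelled Mel92.1 A366 held 115% and 121% of the MP41 genes and 0.0124% and 0.0348% of the Mel92.1 genes. These 4 libraries were therefore placed with the other line, where the study's own lists of expression values also have them. Counts or values as labelled and without the 4 are given beside the counts of called genes that rest on them. Library totals ran from 23601156 to 62941462 expected counts. The library of Mel92.1 UNC0642 replicate 1 stood apart. It had the lowest total, 32.8% of its counts in ribosomal RNA genes against 3.31% to 19.5% in the other 17, and 13.5% of all genes with a mean of at least 10 counts listed at 0, against 1.37% to 3.00%. Of the 36 zinc finger genes at that mean, 7 were at 0 in this library. In MP41 the A366 libraries as placed had 5.93%, 8.06% and 11% of their counts in ribosomal RNA genes. The DMSO and UNC0642 libraries of MP41 had 3.31% to 5.14%. Totals of these A366 libraries were also larger, at 46220015 to 54800817 against 37531522 to 44082889. What part this has in the A366 values of MP41 was not tested. The melanocyte markers MLANA, PMEL, TYR, MITF and SOX10 were at 249 CPM (counts relative to the library total, scaled with TMM factors) or more in every library. DCT, another melanocyte marker, was at 222 to 524 CPM in MP41 and at 1.16 to 10.6 in Mel92.1. PTPRC and EPCAM, of leukocytes and epithelium, were at 1.06 CPM or less.

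The 38 genes span 2.01 megabases, chr19:51571298-53580269 on GRCh38, with 17 on the plus and 21 on the minus strand. By a pattern match in their longest annotated proteins they encode 7 to 26 C2H2 fingers, with a median of 13, and 31 of the 38 had letters of a KRAB box. ZNF845 held the most fingers at 26, and ZNF577, ZNF766 and ZNF701 the fewest at 7. The protein of each gene was 49.5% to 91.2% identical to its nearest relative in the set, with a median of 71.0%, and 13 genes were over 80% identical to another. ZNF28 and ZNF468 were the closest at 91.2%, followed by ZNF600 and ZNF611 at 89.1% and by ZNF808 and ZNF600 at 85.7%. These likenesses reach into the counts. An expected count that is not a whole number marks reads that the authors' program divided among genes or transcripts, and 48.0% of the values of 36 zinc finger genes were not whole, against 18% over all 14947 genes with a mean of at least 10. ZNF611, ZNF600, ZNF765, ZNF761 and ZNF813 had no whole value in any library, and ZNF320 had 1 in 18, so that the levels of these relatives are uncertain among themselves. The annotated spans of 7 pairs also overlap on the same strand, ZNF28 with ZNF468 and ZNF468 with ZNF320 among them, where strand cannot tell their reads apart.

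Promoters were found in RefSeq (GRCh38.p14) for 32 of the 38 genes. ZNF28, ZNF480, ZNF600, ZNF610, ZNF649 and ZNF665 had no entry. The 250 bases before the annotated start of ZNF320 (chr19:52897695-52897944, minus strand), ZNF525 (chr19:53365455-53365704, plus strand) and ZNF813 (chr19:53467483-53467732, plus strand) are shown because these genes are described library by library below, ZNF525 and ZNF813 with the largest changes. The capitals mark CAGGCCCCGCCCACCTC, the longest run of letters (17 bases) that all 3 share.

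ZNF320: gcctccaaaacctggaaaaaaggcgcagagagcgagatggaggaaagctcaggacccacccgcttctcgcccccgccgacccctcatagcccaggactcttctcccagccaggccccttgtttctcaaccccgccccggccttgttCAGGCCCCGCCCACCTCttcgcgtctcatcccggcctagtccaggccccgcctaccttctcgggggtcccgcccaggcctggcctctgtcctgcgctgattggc
ZNF525: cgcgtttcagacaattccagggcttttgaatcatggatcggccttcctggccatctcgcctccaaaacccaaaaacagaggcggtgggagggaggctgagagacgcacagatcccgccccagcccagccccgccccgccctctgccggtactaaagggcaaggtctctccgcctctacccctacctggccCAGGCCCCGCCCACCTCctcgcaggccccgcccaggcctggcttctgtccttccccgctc
ZNF813: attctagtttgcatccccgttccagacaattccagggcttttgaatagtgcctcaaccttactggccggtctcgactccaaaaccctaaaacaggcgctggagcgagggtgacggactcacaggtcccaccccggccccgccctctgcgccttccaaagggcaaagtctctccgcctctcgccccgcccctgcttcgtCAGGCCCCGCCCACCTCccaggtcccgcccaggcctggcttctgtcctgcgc

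The run began 104 bases before the start in ZNF320, 60 in ZNF525 and 52 in ZNF813. On either strand of the 300-base promoters it occurred in 7 of the 32 genes (21.9%), namely ZNF320, ZNF525, ZNF761, ZNF808, ZNF813, ZNF816 and ZNF83, and in 10 of all 35116 promoters (0.0285%). It was looked for after the values of these genes were known, and ZNF320, ZNF525 and ZNF813 hold it by its definition. The 10 promoters are those of the 7 genes, of LOC137778871 and of ZNF816-ZNF321P. The 21.9% is a share of genes and the 0.0285% a share of promoters, so that they do not measure enrichment. The promoters of the neighbours ZNF614 (chr19:52028380-52028629) and ZNF615 (chr19:52008212-52008461), both on the minus strand, are shown for a different sequence, the core letters AAGATGGCG that the factor YY1 binds, in capitals on the gene strand of ZNF615 and as the reverse complement in ZNF614.

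ZNF614: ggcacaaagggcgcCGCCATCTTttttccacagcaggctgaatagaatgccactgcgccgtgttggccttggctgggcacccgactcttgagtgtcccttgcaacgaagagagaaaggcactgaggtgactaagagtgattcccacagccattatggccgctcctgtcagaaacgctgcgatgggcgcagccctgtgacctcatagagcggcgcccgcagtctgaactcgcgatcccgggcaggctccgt
ZNF615: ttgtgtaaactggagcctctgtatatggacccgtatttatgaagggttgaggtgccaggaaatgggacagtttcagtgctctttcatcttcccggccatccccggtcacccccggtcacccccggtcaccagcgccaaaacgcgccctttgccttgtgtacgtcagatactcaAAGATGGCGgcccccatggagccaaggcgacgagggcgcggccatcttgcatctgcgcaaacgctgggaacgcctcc

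These letters lay 236 bases before the start in ZNF614 and 77 bases before it in ZNF615. They occurred in 2 of the 45 promoters of the set (4.44%), in 13 of 511 promoters of other zinc finger genes (2.54%) and in 535 of 22198 promoters of protein-coding genes (2.41%). TGACGTCA, the cAMP response element, was searched on both strands too and occurred in 0 of 45, against 2.26% of protein-coding promoters. The letters of the NRF1 and ZBTB33 motifs were searched as well. Those of NRF1 occurred in 2 of 45 (4.44%), against 2.54% of other zinc finger promoters and 1.5% of protein-coding promoters. Those of ZBTB33 occurred in 0 of 45, against 0.568% of protein-coding promoters. The ratio of observed to expected CG pairs had a median of 0.828 in the set and 0.737 over protein-coding promoters.

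In DMSO-treated cells most of the 38 genes were expressed at a low level, and the lines differed in which stood highest. Compared per length, as CPM per kilobase of the longest transcript, the highest levels in Mel92.1 were those of ZNF331 with 3.85 ± 0.458 (SD, n = 3), ZNF761 with 3.85 ± 0.423, ZNF415 with 3.75 ± 0.264, ZNF320 with 3.54 ± 0.217 and ZNF160 with 3.23 ± 0.299. The SD ranges of neighbours in this order overlapped. In MP41 ZNF880 led with 4.79 ± 0.384, ahead of ZNF160 with 3.39 ± 0.160 and ZNF480 with 2.34 ± 0.262, with no overlap of the SDs among these 3. ZNF616 with 1.93 ± 0.0435, ZNF83 with 1.87 ± 0.105 and ZNF761 with 1.82 ± 0.0504 followed, and the SDs of neighbours in that order overlapped. ZNF534 and ZNF677, the latter often silenced by methylation in tumors, stayed at or below 0.486 and 0.102 CPM in every library and were not tested in either line.

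**Figure D1:**
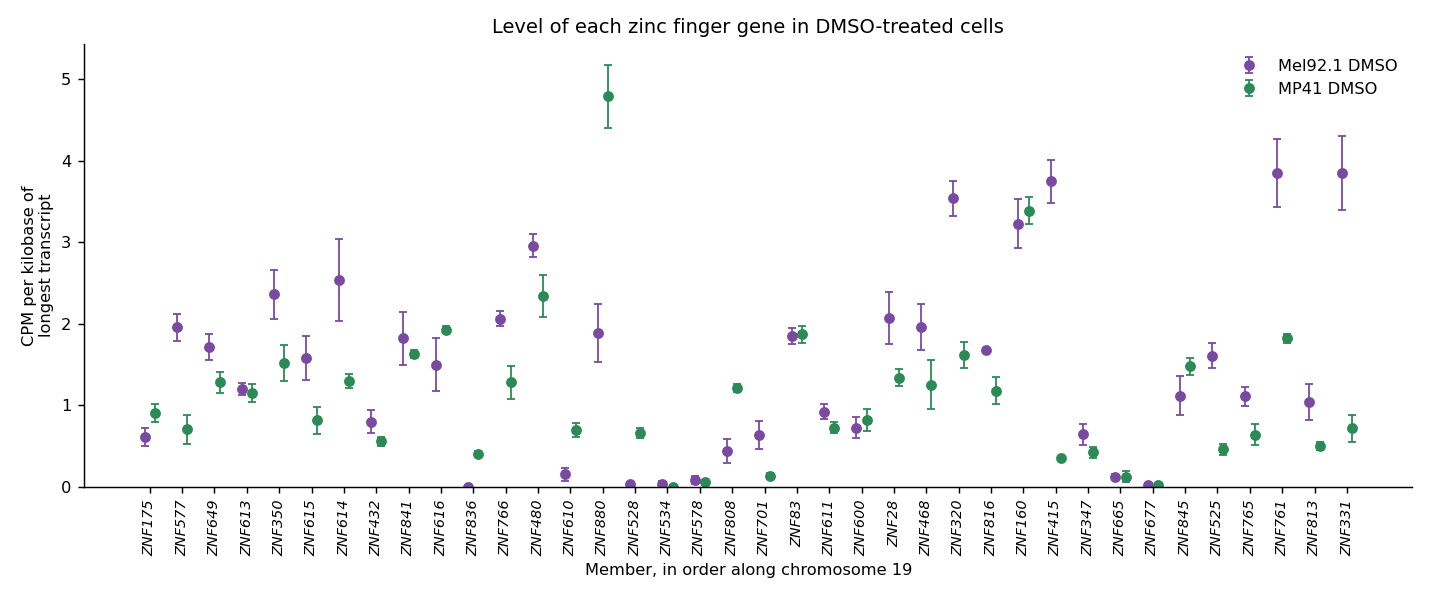
Level of the 38 zinc finger genes in DMSO-treated Mel92.1 and MP41 cells, in CPM per kilobase of longest transcript, in order along the chromosome. Points are means of 3 libraries and bars SDs; ZNF880 stands highest in MP41 at 4.79, and ZNF331, ZNF761 and ZNF415 in Mel92.1 at 3.75 to 3.85.

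Compared between the lines, 16 of 36 tested genes were higher in Mel92.1 and 6 lower by edgeR's quasi-likelihood test with a Benjamini-Hochberg adjusted p under 0.05. Over all 15799 genes tested, 34.5% were higher and 34.8% lower, so that the set leaned to Mel92.1 (44.4% against 16.7%). ZNF415 stood at 9.07, 10.4 and 10.1 CPM in the Mel92.1 DMSO libraries and at 0.973, 0.883 and 0.891 in those of MP41 (log2 difference 3.42 ± 0.235 SE, adjusted p = 6.57e-10). ZNF331, an imprinted gene, was at 21.9, 18.8 and 17.4 CPM against 4.46, 2.76 and 3.61 (2.42 ± 0.163, adjusted p = 5.09e-10), and ZNF525 differed by 1.81 and ZNF320 by 1.13. In the other direction, ZNF836 had 1 count over the 3 Mel92.1 DMSO libraries and 177 over those of MP41, a ratio of 164 with an exact 95% counting interval of 29 to 6502, ZNF528 was lower in Mel92.1 by a log2 difference of -4.46 and ZNF610 by -2.18. The groups of these genes did not overlap. With the libraries as labelled, 8 were higher (22.2%, against 28.2% of all genes) and 4 lower (11.1%, against 27%), so that the share higher did not exceed that over all genes. There the placement touches no DMSO library and acts through the shared estimate of the spread. The median log2 difference of the set was 0.51 as placed and as labelled, and 0.54 without the 4 exchanged libraries.

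With the inhibitors, the levels of these genes lay below DMSO in most comparisons, and they passed the test in MP41 cells given A366. There, 27 of 36 tested genes (75%) were lower and 0 higher than in DMSO (edgeR, adjusted p under 0.05), where 23.5% of all 14956 genes were lower. The log2 fold changes ran from -1.39 to -0.31, all 36 below 0, with a median of -0.80 beside 0.02 over all genes. In 30 of the 36 every A366 library lay below every DMSO library, against 26.7% of all genes (13 and 21.9% as labelled, and 34 and 36.1% for the 1 A366 library left without the 4). With the libraries as labelled, 7 were lower (19.4%) and 1 higher (2.78%), with a median of -0.11. Of all 15088 genes tested as labelled, 2029 were lower and 2922 higher. Without the 4 exchanged libraries the median was -0.86, beside 0.0022 over all genes. That fit leaves 1 A366 library, which is assumed to vary like the other groups. RNA was taken from whole cultures, where fewer cells of a kind and less RNA per cell cannot be told apart.

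In the other comparisons no gene of the set passed the edgeR test. With A366 in Mel92.1, 0 of 34 were called, where 0.0344% of all 14528 genes were called lower, and all 34 log2 fold changes were below 0, with a median of -0.41 beside -0.0052 over all genes. Over all genes 51.7% of the values were below 0. At an unadjusted p under 0.05 there were 6 of the 34 (17.6%), against 4.32% of all genes. In 21 of the 34 every A366 library lay below every DMSO library, against 7.23% of all genes (23 and 10.6% as labelled, and 27 and 19.9% for the 1 A366 library left without the 4). DESeq2 called 1 of the 34 lower, at a rate of 0.399% over all genes, and limma voom with sample quality weights called 17, at a rate of 10.8% over all genes. As labelled the median was -0.86 with 31 of 34 below 0, and without the exchanged libraries -0.38 with 31 below 0, with 0 called both times.

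With UNC0642, 0 of 34 genes were called in Mel92.1 by edgeR, beside 0.138% of all genes called lower, and 0 of 36 in MP41, beside 0.127%. At an unadjusted p under 0.05 there were 8 of 34 (23.5%) in Mel92.1, against 9.93% of all genes, and 7 of 36 (19.4%) in MP41, against 8.80%. DESeq2 and limma voom each called 1 gene lower in Mel92.1 (0.984% and 0.854% of all genes) and 1 in MP41 (0.568% and 0.501%). The median log2 fold change was -0.29 in Mel92.1, with 27 of 34 values below 0 (79.4%, against 54.4% of all genes). It was -0.44 without UNC0642 replicate 3, the library of that group nearest to DMSO. The median without replicate 1, the library that stood apart, is not given here. In MP41 the median log2 fold change was -0.23, with 30 of 36 below 0 (83.3%, against 49.6%). Every UNC0642 library lay below every DMSO library in 11 genes in Mel92.1, against 8.03% of all genes, and in 8 genes in MP41, against 9.29%. The comparisons of a line share their DMSO libraries, so that their values are not independent of each other. Library by library, the median of the set against the DMSO mean was -0.63, -0.36 and -0.10 in the UNC0642 libraries of Mel92.1 and -0.37, -0.33 and -0.55 in its A366 libraries. In MP41 it was -0.19, -0.24 and -0.23 in the UNC0642 libraries, while A366 gave -0.81, -0.59 and -0.92. The lowest of the Mel92.1 UNC0642 values is that of the library that stood apart, and of the DMSO libraries of Mel92.1 replicate 1 lay above the others, at 0.16 against -0.07 and -0.08. The 3 A366 libraries of MP41 lay below every other library of that line.

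**Figure D2:**
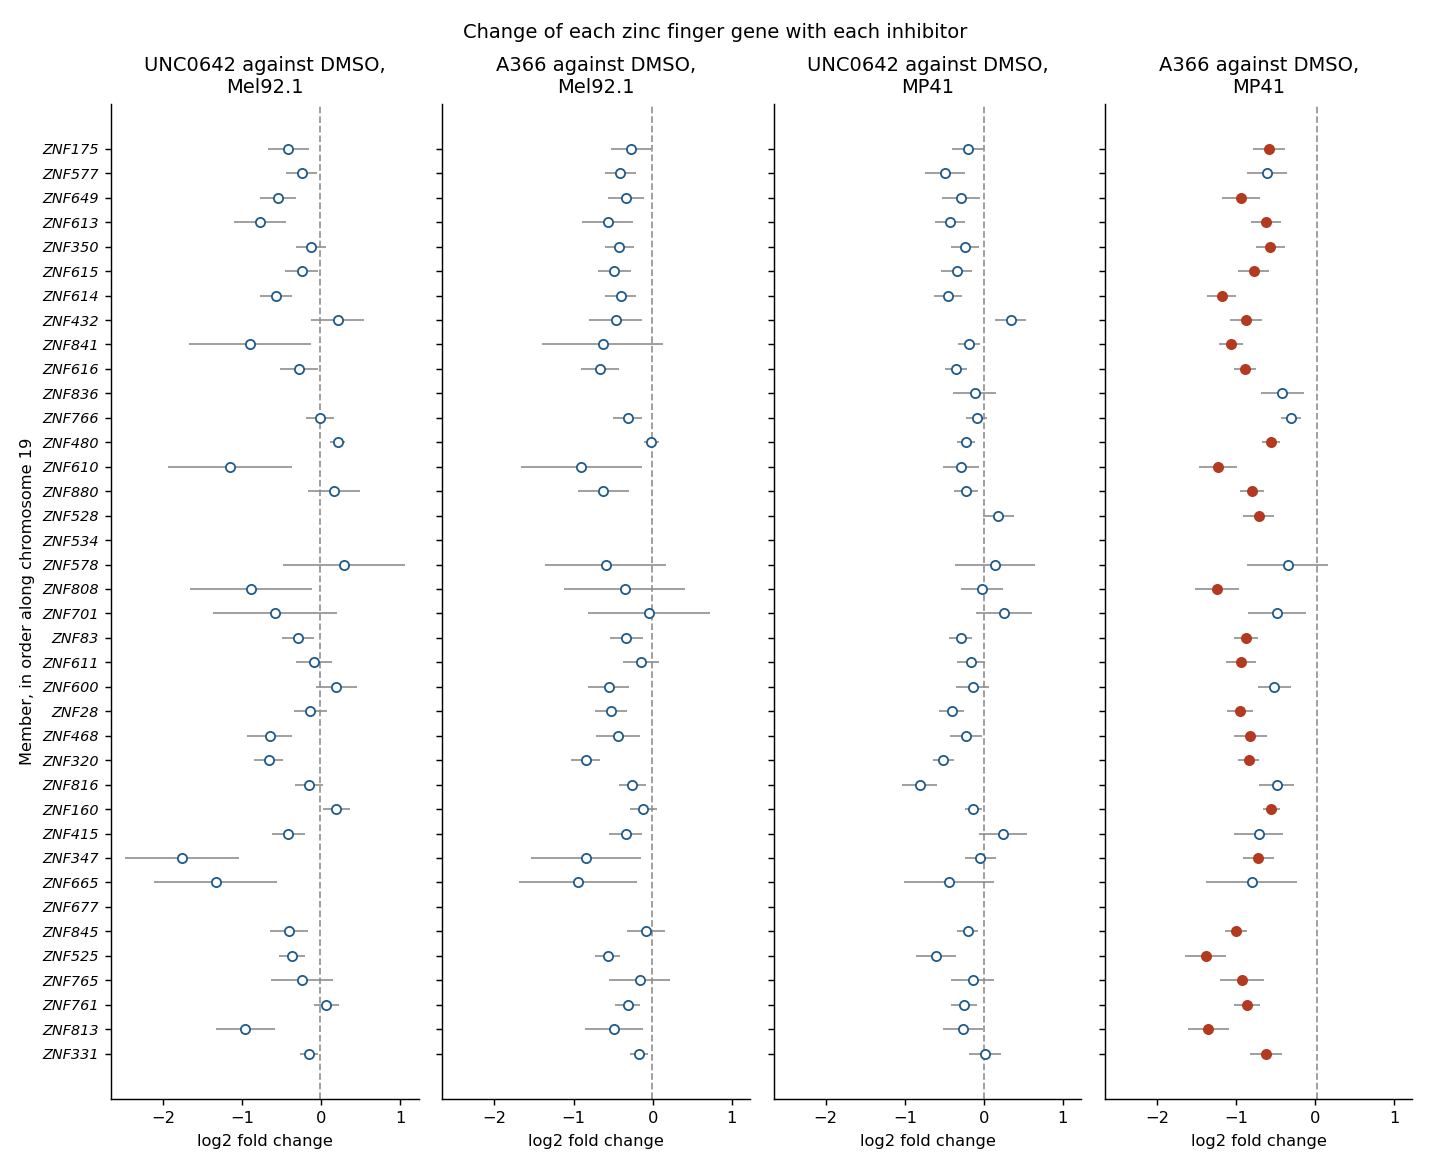
Log2 fold change of each zinc finger gene against DMSO, in order along the chromosome, in 4 panels for the inhibitors and lines. Bars are standard errors, filled red points have an adjusted p under 0.05, open points do not, the dashed line is the median of all genes tested, and untested genes have no point; 27 points are filled with A366 in MP41 and 0 in the other panels.

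ZNF320, whose protein has 11 fingers and a KRAB box, lay below DMSO in all 4 comparisons. In Mel92.1 it stood at 23.3, 24 and 21.3 CPM in the DMSO libraries, at 9.84, 15.5 and 17.6 after UNC0642 and at 12, 13.7 and 12.5 after A366. In MP41 it stood at 11, 9.22 and 11.1 CPM in the DMSO libraries, at 6.49, 7.24 and 8.25 after UNC0642 and at 5.73, 6.58 and 5.47 after A366. Every inhibitor library lay below every DMSO library of its line, the A366 and UNC0642 libraries overlapped in both lines, and the spread was widest with UNC0642 in Mel92.1. In Mel92.1 the log2 fold change was -0.66 ± 0.183 (SE, adjusted p = 0.229) for UNC0642 and -0.84 ± 0.183 (0.170) for A366. In MP41 it was -0.51 ± 0.130 (adjusted p = 0.198) and -0.84 ± 0.131 (0.000692). In the comparisons that missed the threshold with edgeR it passed with DESeq2 (0.0293 for UNC0642 and 0.00206 for A366 in Mel92.1, then 0.0289 in MP41) and with limma voom (0.0190, 9.53e-06 and 0.0413 in the same order). With A366 in Mel92.1 it also passed without Mel92.1 UNC0642 replicate 1, at an adjusted p of 0.00446. In 15 of 21 alternatives of that comparison it still missed the threshold, as without A366 replicate 1 (0.840) and with a replicate block (0.379). With UNC0642 it missed the threshold in 19 of 21 alternatives in each line. As labelled, its change with A366 in MP41 was 0.05 (adjusted p = 0.911).

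ZNF525 and ZNF813, both near the distal end of the cluster, and ZNF808, whose loss in people impairs development of the pancreas, had the largest changes with A366 in MP41. ZNF525 was at 2.49, 2.63 and 3.30 CPM with DMSO, 2.02, 1.89 and 1.62 under UNC0642 and 1.47, 1.01 and 0.776 under A366. The A366 libraries reached 38.6% of the DMSO mean (log2 fold change -1.39 ± 0.256 SE, adjusted p = 0.00142), and the 3 groups did not overlap. In Mel92.1 ZNF525 was at 10.9, 9.39 and 9.25 CPM with DMSO, 8.69, 6.24 and 8.08 under UNC0642 and 6.08, 7.26 and 6.59 under A366, again with both inhibitor groups below DMSO, at log2 fold changes of -0.37 and -0.57 (adjusted p = 0.492 and 0.442).

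ZNF813 in MP41 was at 3.37, 2.76 and 3.04 CPM with DMSO, 3.09, 2.06 and 2.54 under UNC0642 and 1.04, 1.71 and 0.905 under A366. Only the A366 group lay wholly below DMSO among the MP41 groups of this gene (-1.35 ± 0.262, adjusted p = 0.00180), and the UNC0642 value was -0.26 (0.854). In Mel92.1 it was at 7.90, 6.01 and 5.28 CPM with DMSO, at 1.34, 3.53 and 4.74 with UNC0642 (-0.96, adjusted p = 0.435) and at 4.31, 5.54 and 3.92 with A366 (-0.48, 1). There the UNC0642 libraries lay below DMSO and the A366 libraries overlapped them.

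ZNF808 in MP41 was at 5.28, 4.90 and 5.19 CPM with DMSO, 5.11, 4.95 and 5.11 under UNC0642 and 1.87, 3.50 and 1.23 under A366. The UNC0642 and DMSO libraries overlapped (-0.02 ± 0.270, adjusted p = 0.992), while the A366 libraries lay below both (-1.24 ± 0.281, adjusted p = 0.00395), with replicate 2 nearest to DMSO. In Mel92.1 ZNF808 was lower already with DMSO, at 2.54, 1.65 and 1.37 CPM, and stood at 0, 1.56 and 1.29 with UNC0642 and 1.53, 1.46 and 1.36 with A366, where all groups overlapped. The 0 is in the library that stood apart.

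ZNF614 and ZNF616 lie in the proximal part of the cluster. ZNF614 in MP41 was at 6.38, 5.76 and 6.58 CPM with DMSO, 5.14, 3.70 and 4.90 under UNC0642 and 2.72, 3.40 and 2.26 under A366 (-1.18 ± 0.183, adjusted p = 0.000659), and the 3 groups did not overlap. In Mel92.1 it was at 15, 10.7 and 10.9 CPM with DMSO, 6.14, 9.24 and 9.19 with UNC0642 (-0.57, adjusted p = 0.385) and 9.47, 10.3 and 8.10 with A366 (-0.40, 1). All inhibitor libraries lay below DMSO there too, by a margin that is small against the spread of the DMSO libraries.

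ZNF616, which encodes 21 fingers, was at 8.52, 8.15 and 8.41 CPM with DMSO in MP41, 6.54, 7.10 and 6.06 with UNC0642 (-0.35, adjusted p = 0.470) and 4.15, 5.49 and 4.18 with A366 (-0.88 ± 0.138, 0.000692). The 3 groups did not overlap. In Mel92.1 it was at 8, 5.27 and 6.23 CPM with DMSO, 4.07, 4.94 and 6.99 with UNC0642 (-0.28, adjusted p = 0.718) and 3.84, 4.71 and 3.77 with A366 (-0.66, 0.846). There the A366 libraries lay below DMSO and the UNC0642 libraries overlapped them.

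By its means ZNF816 had the reverse order of the inhibitors in MP41, though 0 genes of the set were called higher with A366 than with UNC0642 there. It was at 2.75, 3.65 and 3.17 CPM with DMSO, 1.85, 1.98 and 1.64 with UNC0642 (-0.81 ± 0.223, adjusted p = 0.247) and 1.78, 2.19 and 2.97 with A366 (-0.49 ± 0.219, 0.0861). The UNC0642 libraries lay below DMSO and the A366 libraries overlapped both groups. In Mel92.1 it was at 4.50, 4.47 and 4.61 CPM with DMSO, 3.95, 4.07 and 4.20 under UNC0642 and 4.01, 3.70 and 3.65 under A366, where both inhibitor groups lay below DMSO at log2 fold changes of -0.16 and -0.26 that did not pass the test (adjusted p = 0.773 and 1).

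**Figure D3:**
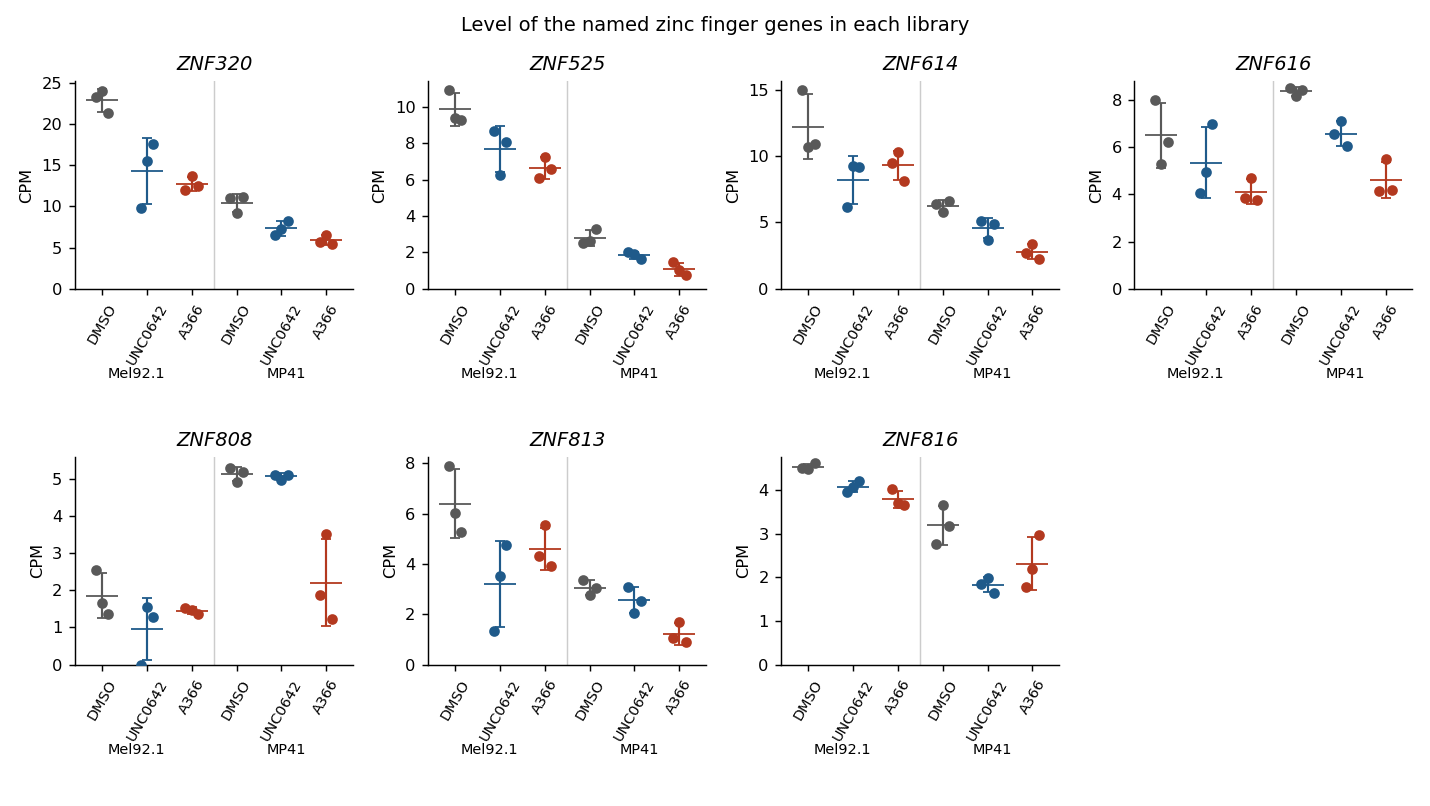
Level in CPM of the 7 zinc finger genes described library by library, in the 6 groups. Points are single libraries, bars the mean and SD of 3; in MP41 the A366 points of ZNF525, ZNF614 and ZNF616 lie below all UNC0642 and DMSO points, those of ZNF320 lie below DMSO and overlap UNC0642, and those of ZNF816 overlap both.

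Among the remaining genes called lower with A366 in MP41, the changes were largest in ZNF610 (-1.23 ± 0.235, adjusted p = 0.00169), ZNF841 (-1.06 ± 0.146, 0.000430) and ZNF845 (-1 ± 0.137, 0.000417), the last being the smallest adjusted p of the set. ZNF28 (-0.95), ZNF611 (-0.94), ZNF649 (-0.94), ZNF765 (-0.92), ZNF83 (-0.88), ZNF432 (-0.87), ZNF761 (-0.86), ZNF468 (-0.82) and ZNF880 (-0.80) were lower by similar amounts. ZNF615 (-0.78), ZNF347 (-0.72), ZNF528 (-0.72), ZNF613 (-0.62), ZNF331 (-0.62), ZNF175 (-0.58), ZNF350, a repressor that partners BRCA1 (-0.56), ZNF160 (-0.56) and ZNF480 (-0.56) were lower by less. The 9 genes that missed the threshold were ZNF600 (-0.52, adjusted p = 0.0624), ZNF577 (-0.61, 0.0698), ZNF766 (-0.31, 0.0770), ZNF415 (-0.71, 0.0786), ZNF816, ZNF836 (-0.41, 0.231), ZNF665 (-0.80, 0.279), ZNF701 (-0.49, 0.299) and ZNF578 (-0.35, 0.612). ZNF415, ZNF578, ZNF665 and ZNF701 were below 1 CPM on average in MP41 DMSO.

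ZNF836 and ZNF528 were tested in MP41 alone, since in Mel92.1 they did not exceed 0.486 and 0.213 CPM in any library. ZNF432 was the gene that lay above DMSO in every UNC0642 library of MP41, at 3.05, 3.39 and 3.14 CPM against 2.44, 2.32 and 2.78 (0.34 ± 0.196, adjusted p = 0.690). With A366 it fell to 1.42, 1.67 and 1.10 CPM, below both. In Mel92.1 the largest value without a call was that of ZNF347 with UNC0642 (-1.76 ± 0.721, adjusted p = 0.463), where the libraries were at 0, 2.23 and 2.06 CPM against 6.32, 4.36 and 4.69, all below DMSO also without the library that stood apart.

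Compared directly at the same dose and time, the inhibitors differed in MP41 and not detectably in Mel92.1. In MP41, 23 of 36 genes (63.9%) were lower with A366 than with UNC0642 (edgeR, adjusted p under 0.05) and 0 higher, against 22% of all genes lower. Of the lists described below, 39.3% of other zinc finger genes, 36.9% of long genes and 48.2% of long genes in the GC range of the set were lower. The differences were largest in ZNF808 (-1.22 ± 0.281, adjusted p = 0.00474), ZNF432 (-1.21 ± 0.202, 0.000890) and ZNF813 (-1.09 ± 0.263, 0.00591), while ZNF320 differed by -0.32 ± 0.132 (0.0646). The count was 4 as labelled, 13 without the 4 exchanged libraries, 14 without MP41 A366 replicate 1, 13 under an offset for GC content and length, 10 with that offset and a replicate block, and 3 with the offset and without the 4 libraries. As labelled, 11.1% of the 36 genes were called lower, against 12.4% of all genes, so that the set did not exceed the share over all genes. The counts under the offset are given without the share over all genes and cannot be set against it here. In Mel92.1, 0 of 34 genes were called in either direction by edgeR, DESeq2 and limma voom (3 at an unadjusted p under 0.05 in edgeR), where 0.165% of all genes were called, with a median difference of -0.05 and a range of -0.88 to 0.92. ZNF320 differed there by -0.18 ± 0.183.

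Whether the response differed between the lines was tested as an interaction. With UNC0642, 0 of 36 genes differed by edgeR, DESeq2 and limma voom (4 at an unadjusted p under 0.05 in edgeR), against 0.601% of all genes. With A366, ZNF480 and ZNF845 differed, against 13.8% of all genes, a lower share than over all genes. ZNF845 was at 10.1, 9.32 and 8.82 CPM with DMSO and 5.12, 5.25 and 3.92 with A366 in MP41, and at 8.74, 6.81 and 5.80 and then 7.01, 7.76 and 5.46 in Mel92.1, a change that was 0.90 ± 0.285 higher in Mel92.1 on the log2 scale (adjusted p = 0.0450). ZNF480 was at 12.4, 9.97 and 10.8 CPM and then 8.32, 7.67 and 6.98 in MP41, and at 13.2, 14.3 and 14.5 and then 13.9, 14.6 and 13.0 in Mel92.1 (0.52 ± 0.152, adjusted p = 0.0347). In both genes the groups overlapped in Mel92.1 and did not in MP41. The count was 10 as labelled, 0 without the exchanged libraries, 0 under an offset for GC content and length and 0 with a replicate block. It ran from 0 to 6 when single libraries were left out, with 6 without Mel92.1 UNC0642 replicate 1. As labelled, 11.1% of the set were called higher and 16.7% lower, less than the 23.7% and 25.7% of all genes. ZNF320 changed by nearly the same amount in both lines with A366 (difference -0.03 ± 0.235, adjusted p = 0.967). Over 34 genes the A366 changes of the lines had a Spearman rho of 0.24 and the UNC0642 changes 0.25, across genes that share reads and neighbours.

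These genes have long, AT-rich transcripts, and with A366 in MP41 the fold changes of all genes moved with length and GC content. The longest transcripts of the tested members measured 2230 to 7960 bases (median 4600) with 37.5% to 47.4% GC (median 41.6%), where all genes had medians of 3566 bases and 48.5%. With A366 in MP41 the median log2 fold change over all genes went, over 5 equal groups, from 0.33 in the shortest transcripts to -0.33 in the longest, and from -0.28 in those of lowest GC to 0.31 in those of highest. With A366 in Mel92.1 it lay between -0.0149 and -0.0018 in the 5 groups of length. Genes outside the zinc finger families with transcripts at or above the lower quartile of the set (3719 bases) were lower in 2622 of 6581 cases (39.8%) in MP41 with A366, with a median of -0.18. Restricted to the GC range of the set, a list chosen after seeing the data, 1639 of 3101 (52.9%) were lower with a median of -0.30. The other zinc finger genes were lower in 196 of 440 cases (44.5%) with a median of -0.38. As labelled the long genes were lower in 24.2% of cases, those in the GC range in 33% and the other zinc finger genes in 23.4%, beside 19.4% of the set, and without the 4 exchanged libraries in 36.6%, 48.9% and 35.3%, beside 61.1%. With the libraries as placed, the zinc finger genes of 19q13.41 stood at 75% and -0.80. In Mel92.1 with A366 the same lists had medians of -0.0019, 0.02 and -0.14, beside -0.41 for the set, and 50.8%, 42.4% and 75.9% of their values were below 0, beside 34 of 34.

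When an offset for GC content and length was added to each gene and library, 19 of the 36 genes remained lower with A366 in MP41, where 19% of all genes and 22.5% of the long genes were called lower, with a median of -0.60 beside -0.20 for the other zinc finger genes and -0.01 for all genes. With the same offset and without the 4 exchanged libraries, an alternative added after seeing the data, 10 of the 36 were lower, against 10.6% of all genes, with a median of -0.58, and ZNF320 was not called (-0.52, adjusted p = 0.0589). The lower calls lost with all libraries in place were those of ZNF175, ZNF331, ZNF347, ZNF480, ZNF528, ZNF613, ZNF615 and ZNF765. With A366 in Mel92.1 the median under the offset was -0.45, and ZNF320 was called lower (adjusted p = 0.0365). Within the set the A366 changes in MP41 had a Spearman rho of -0.13 with transcript length, 0.35 with GC content, -0.16 with the level in DMSO, -0.15 with the number of fingers and -0.34 with the share of values that were not whole, over 36 genes. In Mel92.1 the values were 0.17, 0.08, 0.31, -0.13 and 0.05 over 34, all given as descriptions across related genes.

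**Figure D4:**
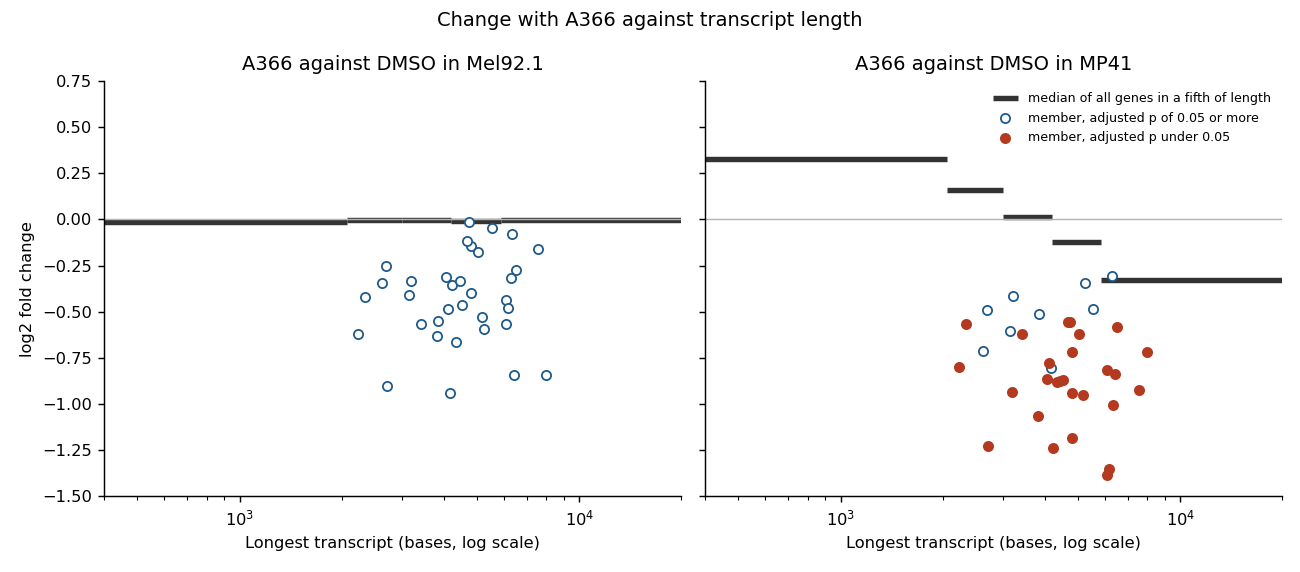
Log2 fold change with A366 against the length of the longest transcript (in bases, log scale) in Mel92.1 and MP41. Points are the tested zinc finger genes, filled red where the adjusted p was under 0.05, and black bars are the medians of all genes in 5 equal groups of length, which step from 0.33 down to -0.33 in MP41 and stay near 0 in Mel92.1; the zinc finger genes lie below the bars in both lines except for 1 point in MP41.

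Between the first and the last of the 38 genes the table holds 29 further genes. Of 4 with zinc finger symbols, all tested, ZNF888 (-1.07, adjusted p = 0.00478) and ZNF702P (-0.87, 0.0109) were lower with A366 in MP41, and ZNF321P and ZNF137P were not called (-0.24 and 0.18). Without the 4 exchanged libraries 2 were lower as well, and as labelled 0 were lower and 1 higher. Of the 25 others 5 were tested in MP41, and PPP2R1A, a scaffold subunit of protein phosphatase PP2A that lies among the zinc finger genes, was higher with A366 (0.24 ± 0.0705, adjusted p = 0.0171). Its log2 fold change was 0.25 without the 4 and 0.60 as labelled, where the A366 group includes libraries with the genes of Mel92.1. PPP2R1A was at a mean of 223 CPM in Mel92.1 DMSO and 116 in MP41 DMSO, so that line and A366 cannot be told apart as labelled. In Mel92.1 none of the 4 and none of the 3 other tested neighbours was called with either inhibitor by edgeR. At an unadjusted p under 0.05 there were 0 of the 4 and 2 of the 3 for UNC0642, and 1 of each for A366.

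The partners through which KRAB proteins repress were also measured, listed together with EHMT1, EHMT2 and their own partners WIZ and ZNF644. With A366 in MP41, ZNF644 (-0.49, adjusted p = 0.00921) was among those called lower and EHMT2 among those called higher. With A366 in MP41, 8 of 16 listed partners were lower (50%, against 23.5% of all genes) and 3 higher (18.8%, against 22.5%). The other long genes described above were lower in 39.8% of cases, and those in the GC range of the set in 52.9%. As labelled 4 were lower and 3 higher, and without the 4 exchanged libraries 8 and 2. TRIM28, the KRAB corepressor, was higher by a log2 fold change of 0.23 ± 0.0741 (edgeR, adjusted p = 0.0250), and by 0.20 without the 4. As labelled its value was 1.75, in a group that includes libraries with the genes of Mel92.1. TRIM28 was at a mean of 678 CPM in Mel92.1 DMSO and 148 in MP41 DMSO, so that line and A366 cannot be told apart there. SETDB1 was not called (-0.20, adjusted p = 0.0739). SMARCAD1, a chromatin remodeler that binds TRIM28, fell by 0.66 and ATF7IP, a SETDB1 cofactor, also by 0.66, and the HP1 gene CBX5 by 0.42. Of the HUSH complex FAM208A (TASOR) fell by 0.52 and PPHLN1 by 0.35, while MPHOSPH8 was higher by 0.37 (adjusted p = 0.00200). As labelled, CBX5 (0.42, adjusted p = 0.272) and PPHLN1 (0.26, 0.342) turned positive, and SMARCAD1 was not called (-0.24, 0.321). ATF7IP, FAM208A and MPHOSPH8 kept their direction and their calls as labelled. Their DMSO means in Mel92.1 and MP41 were 37 and 63.1, 40.1 and 108, and 64.8 and 51.5 CPM, which differ in the same directions. The labelled values of the partners mix A366 with the difference between the lines, which cannot be told apart there. ZNF274, which recruits SETDB1 to zinc finger gene clusters, fell by 0.44, from a mean of 14.4 to 10.8 CPM. EHMT2 was higher by 0.23 (adjusted p = 0.00936), a call lost as labelled (0.0974) and without the 4 (0.0513), and EHMT1 was not called (-0.12, 0.207). MORC2, a partner of HUSH, was the single partner called with A366 in Mel92.1 (-0.48, adjusted p = 0.0399), and this call was lost as labelled (0.162) and without the 4 (1). Among the partners 0 of 16 were called with UNC0642 in either line by edgeR (3 in Mel92.1 and 2 in MP41 at an unadjusted p under 0.05).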

How the data were processed

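Gene expression was taken from the authors' deposited table of expected counts, 1 value per gene symbol and library, not scaled to library size. The submitters' processing notes name RSEM 1.2.15, Bowtie2 2.1.0 and hg38, with no role or order; the gene annotation is not given in the sources used here. The study's methods describe another route (a mouse genome and log2 FPKM), which these values are not. RNA was selected with oligo-dT beads per the labels and by removal of ribosomal RNA per the series' design text, in dUTP stranded libraries per the labels. No column was left unused (0).

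Counts were rounded and filtered with filterByExpr, scaled with TMM and tested with edgeR 4.0.16 (glmQLFit and glmQLFTest, R 4.3.3), p-values being adjusted by Benjamini-Hochberg across every tested gene, at a threshold of 0.05. The 9 libraries of a line entered 1 fit, and all 18 the fits over both lines; the study's methods name no count model. The standard error of a log2 fold change is its size over the square root of F. CPM were scaled over 18 libraries. Alternatives were DESeq2 1.42.0, limma 3.58.1 (voom with sample quality weights), RLE factors, other filters, a replicate block, a GC and length offset, 6-library fits, the labelled placement, the 4 libraries left out (also with the offset, added after seeing the data), and each library left out. The steps were tested on simulated counts. GENCODE 29 and RefSeq gave positions, lengths, proteins and promoters; 23899 symbols were found by name, 736 by synonym and 1840 not. Counting intervals cover counting error only.

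The genes and lists were chosen with earlier results of these data known. Given library by library are ZNF320, every gene of the set past the threshold in at least 2 of the 4 comparisons with DMSO, and in each comparison the 3 with the largest change past it or, where fewer than 3 passed, with the smallest unadjusted p.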

Additional observations from a re-analysis of the deposited data

Results flagged for a closer look

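ZNF480 and ZNF845 drew attention because their change with A366 differed between the lines by a test of the difference itself (edgeR interaction over 18 libraries, adjusted p = 0.0347 and 0.0450). The change was higher in Mel92.1 by 0.516 on the log2 scale in ZNF480 and by 0.90 in ZNF845. In MP41 all 3 A366 libraries of both genes lay below all 3 DMSO libraries, and in Mel92.1 they overlapped. Without the 4 exchanged libraries 0 genes of the set were called, and with them as labelled 10 were. The 10 as labelled were 11.1% of the set higher and 16.7% lower, less than the 23.7% and 25.7% of all genes. Under the GC and length offset, with the replicate block and with no filter on low counts 0 were called each time, while DESeq2 called 5 and limma voom 18. The count of 2 fell to 0 without any 1 of MP41 A366 replicate 3, MP41 DMSO replicate 1 or 3, Mel92.1 A366 replicate 1 or 2 and Mel92.1 DMSO replicate 2 or 3, and to 1 without MP41 A366 replicate 1, MP41 DMSO replicate 2 or any 1 of the MP41 UNC0642 libraries. It rose to 4 without MP41 A366 replicate 2 and to 6 without Mel92.1 UNC0642 replicate 1. The expected count of ZNF845 was not whole in 17 of 18 libraries and that of ZNF480 in 1 of 18. The part of divided reads in the ZNF845 value was not tested.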

How the results depend on the processing

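The median of the set with A366 in MP41 was below 0 in every alternative run, from -0.86 to -0.11. As labelled, 8 genes were called (7 lower, 1 higher) in place of 27, and 10 of the changes that were called lower turned positive, those of ZNF320 (0.05), ZNF331 (1.81), ZNF350 (0.036), ZNF480 (0.13), ZNF525 (0.89), ZNF614 (0.19), ZNF615 (0.14), ZNF761 (0.46), ZNF765 (0.35) and ZNF813 (0.21). Of all 15088 genes tested as labelled, 2029 were called lower and 2922 higher. Leaving out single libraries gave 22 to 28 calls. With the offset and without the 4 libraries there were 10. For A366 against UNC0642 in MP41, in place of 23, there were 4 as labelled, 13 without the 4 exchanged libraries, 13 under the GC and length offset, 10 with the offset and a replicate block, 3 with the offset and without the 4 libraries (added after seeing the data), and 14 to 23 with single libraries left out. The 4 as labelled were 11.1% of the set, where 12.4% of all genes were called lower. The DMSO comparison of the lines gave 12 as labelled in place of 22, and 18 to 25 with libraries left out. As labelled 22.2% of the set were higher and 11.1% lower, against 28.2% and 27% of all genes.

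Where edgeR called 0, UNC0642 in Mel92.1 gave 1 with DESeq2, 1 with limma voom and 0 to 1 with libraries left out, UNC0642 in MP41 gave 1 with each of those tools, and A366 in Mel92.1 gave 1 with DESeq2, 17 with limma voom, 1 in the fit of 6 libraries, 1 under the offset with or without the replicate block, and 0 to 1 with libraries left out. The line difference with A366 gave, in place of 2, 10 as labelled, 5 with DESeq2, 18 with limma voom, 0 without the exchanged libraries, 0 without a filter, 0 with the replicate block, 0 under the offset, with or without the block or the 4 libraries, and 0 to 6 with libraries left out. Replicate numbers did not pair the samples (correlations of same-numbered libraries -0.209 to 0.241), and the replicate block changed no other count by over 1.5 times. In the alternatives with 1 A366 library per line, it is assumed to vary like the other groups. Genes near or below 1 CPM and genes that share reads with relatives have the least certain values.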
